A study of Caenorhabditis elegans with 2 samples.

Results

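Promoter regions that lie at the transcript starts of several genes at once were examined on the autosomes of *Caenorhabditis elegans*, in a chromatin immunoprecipitation sequencing (ChIP-seq) profile of the LIM homeodomain transcription factor LIN-11. A region was a member when its summit, the position of strongest signal, fell between 1000 bp upstream and 200 bp downstream of annotated transcript starts of 2 or more protein-coding genes. The members numbered 1356 of the 30000 regions that the authors listed from pooled reads, or 5.51% of the 24595 regions on the 5 autosomes. Of the members, 1207 were divergent, with genes on both strands, and 149 had all their genes on the same strand. Together they lay at 2367 genes in 1201 distinct gene sets, and 151 sets held several regions, so neighbouring members share genes and are not independent of each other.

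The profile came from intact larvae of the second stage (L2) of strain OP62, with males and females pooled. All animals carried the unc-119(ed3) allele on chromosome III and the insertion wgIs62, from which LIN-11 is stably expressed with a GFP-FLAG tag at its C terminus. The 2 samples were biological replicates of this 1 group, the stock of replicate 2 coming from the CGC stock centre and that of replicate 1 from the submitting laboratory. No second condition exists in the series, and control and untagged animals were not analysed here. No read numbers were used, and the depth of each library is unknown. In whole animals, strong binding in few cells and weak binding in many cells cannot be told apart.

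The authors' optimal list came from the irreproducible discovery rate procedure and held 1917 regions. They were identical in position to the 1917 regions of highest signal in the pooled list, so that optimal against other members means strong against weak regions of the same list. The lowest signal inside the optimal list was 27.84, and the highest outside it was 27.82. All signal values are the authors' own, in a unit they did not state, and are compared here only within a list. For a view from each replicate alone, the 1917 strongest regions of that replicate's own list of 30000 stood in for the optimal list. Intervals in brackets are 95% intervals for the counting of regions, not for variation between animals.

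LIN-11 is needed for the fates of cells of the vulva and uterus and of several neurons, and homeodomain proteins commonly recognise short AT-rich sequences around a TAAT core. *C. elegans* genes are densely packed. Neighbouring genes on opposite strands often start head to head from a common stretch of DNA, while neighbours on 1 strand may be transcribed together as an operon, whose downstream genes do not need a promoter of their own. Many messenger RNAs receive a spliced leader, so an annotated start can lie downstream of the true start of transcription. Strong ChIP signals of many different worm transcription factors are known to coincide at the same housekeeping promoters, called high-occupancy target regions, and no list of such regions was used here.

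The sequences below are stretches reaching up to 50 bases to each side of the summits of the 4 strongest divergent members and the 2 strongest same-strand members among those that could be shown. They show the base composition near the summit, but do not reach the flanks described further on. They are read 5′ to 3′ on the forward strand of WBcel235 (ce11, RefSeq). Capitals mark matches on either strand to 5 words of 6 bases that were more frequent at optimal than at other members and are described below, among them GCGCGC and, on the other strand, GTGCGC. The positions are chrIII:10759210-10759306 for *K01G5.10* and *tasp-1*, chrIII:1619096-1619196 for *Y22D7AL.10* and *hsp-60*, chrII:8561386-8561486 for *iff-2* and *F54C9.14*, chrIV:654885-654985 for *rpl-15* and *K11H12.8*, chrV:10897337-10897437 for *F32D8.13* and *sec-61.G*, and chrIV:1659195-1659295 for *rps-28* and *Y41D4B.4*.
K01G5.10/tasp-1: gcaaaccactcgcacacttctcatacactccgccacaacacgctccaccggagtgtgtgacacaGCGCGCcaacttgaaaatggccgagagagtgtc
Y22D7AL.10/hsp-60: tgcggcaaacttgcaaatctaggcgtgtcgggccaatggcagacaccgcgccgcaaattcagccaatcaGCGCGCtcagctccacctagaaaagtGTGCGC
iff-2/F54C9.14: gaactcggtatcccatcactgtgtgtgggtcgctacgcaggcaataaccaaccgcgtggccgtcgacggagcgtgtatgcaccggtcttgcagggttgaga
rpl-15/K11H12.8: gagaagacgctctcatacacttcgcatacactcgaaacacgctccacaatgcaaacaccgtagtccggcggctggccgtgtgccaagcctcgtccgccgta
F32D8.13/sec-61.G: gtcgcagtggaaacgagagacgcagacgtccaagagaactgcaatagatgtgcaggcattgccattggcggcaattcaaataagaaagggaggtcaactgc
rps-28/Y41D4B.4: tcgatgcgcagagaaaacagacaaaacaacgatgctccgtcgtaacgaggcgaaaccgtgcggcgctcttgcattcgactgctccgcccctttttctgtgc
GC content of these 6 stretches lay between 50.5% and 59.4%. Over all 419 optimal members the median within 50 bp of the summit was 49.5% (quartiles 45.5% and 52.97%), so these strong members are not typical. Only the first and second stretch held a marked word, with 1 and 2 matches.

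Shared promoters were far more often among the strongest LIN-11 regions than promoters of 1 gene. Of the 1356 members, 419 were optimal, or 30.9% (28.5% to 33.4%), against 597 of 6665 single-gene autosomal promoters, or 8.96% (8.30% to 9.67%). The background share of optimal regions was 6.39% over the whole pooled list and 6.15% over its autosomal regions, and among autosomal regions outside any promoter it was 3.00%. The difference between shared and single-gene promoters was 21.9 percentage points (19.4 to 24.5). The optimal members lay at 867 genes in 416 gene sets and made up 27.7% of the 1513 autosomal optimal regions. Among the 100 strongest regions of the pooled list, 42 were members, against 28 single-gene autosomal promoters, although single-gene promoters are the larger class.

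Each replicate alone gave the same order of classes. In replicate 1, 376 of 1336 shared promoters in its own list were among its strongest regions, or 28.1%, against 9.20% of single-gene promoters. In replicate 2, the counts were 416 of 1342 shared promoters, or 31.0%, against 9.09% of single-gene promoters. The difference was 18.9 points in replicate 1 and 21.9 points in replicate 2. It was positive on each autosome, with 20.9 points on chromosome I, 22.7 on II, 28.1 on III, 18.9 on IV and 17.7 on V, and every one of these intervals lay above 0. Chromosome III also had the highest share of optimal regions among its members, 38.4%, and chromosome V the lowest, 24.8%. A median of 6 protein-coding genes started within 10 kb of the summit at members, against 5 at single-gene promoters. These counts include a region's own genes, 2 or more at members and 1 at single-gene promoters. The membership rule thus builds in a difference, and these medians do not show denser surroundings. The part of gene density in the difference between the classes was not tested.

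**Figure D1:**
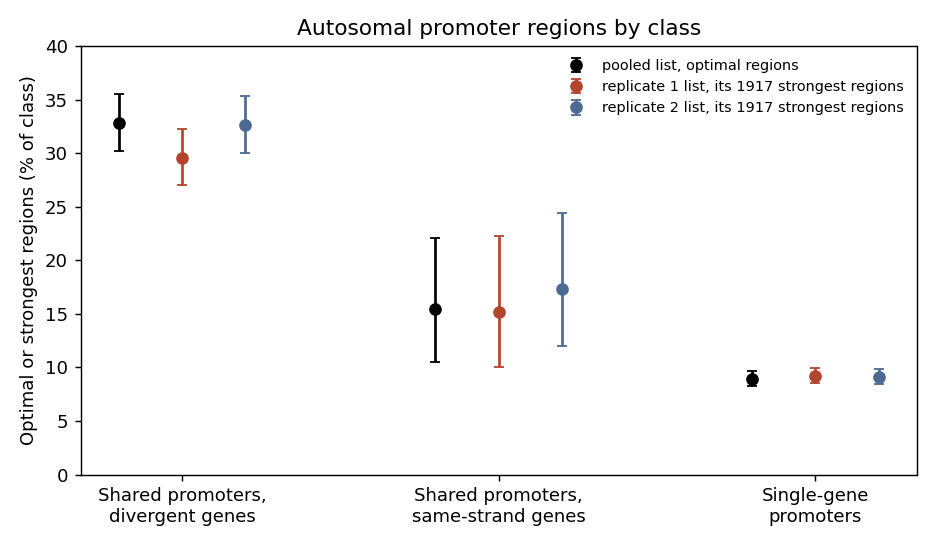
Share of optimal regions (pooled list, black) or of a replicate's own strongest regions (colours) in 3 classes of autosomal promoter regions, as percent of the class, with 95% Wilson intervals. In all 3 lists the divergent class is highest, at 29.6% to 32.8%, and the single-gene class lowest, at 8.96% to 9.20%.

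Orientation set the members apart. Divergent members were optimal in 396 of 1207 regions, or 32.8% (30.2% to 35.5%), against 23 of 149 same-strand members, or 15.4% (10.5% to 22.1%). The difference was 17.4 points (10.2 to 22.99) in the pooled list, 14.4 points in replicate 1 and 15.3 points in replicate 2. Same-strand members were still above single-gene promoters, by 6.48 points (1.504 to 13.2). Where the comparison was held to summits upstream of every start, 39.7% of 943 divergent members and 25.9% of 81 same-strand members were optimal, a difference of 13.7 points (2.82 to 22.6). Standardised over bins of distance to the nearest start, the difference was 11.9 points (3.92 to 19.8). In a narrow window of 300 bp upstream to 50 bp downstream it was 21.5 points, but so few same-strand members were left that the interval reached below 0 (-3.46 to 39.4).

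Most divergent members, 1115 of 1207, were plain head-to-head pairs with 1 gene on each strand, and 361 of these, or 32.4%, were optimal. Members with genes on both strands and 3 or more genes in all were optimal in 34 of 84 regions, or 40.5% (30.6% to 51.2%). Over both orientations, 3 genes in the window went with 39.3% optimal regions (29.5% to 49.98%), against 30.3% for 2 genes (27.9% to 32.9%), and these intervals overlap. Only 2 regions had 4 genes. The region at *Y62E10A.20*, *Y62E10A.23*, *mdt-9*, a Mediator subunit gene, and *lsm-3*, an Lsm protein gene of RNA processing, was optimal at a pooled signal of 62.3. It ranked 145 in replicate 1 and 1606 in replicate 2. The region at *dnj-2*, *B0035.3*, *B0035.22* and *pfd-4*, a prefoldin subunit gene, was not optimal, with a pooled signal of 9.57. Of the 84 members with 3 genes, the 1 named here had the highest pooled signal, 131.9, so it does not stand for the others. It lay at *abcf-2*, *T27E9.2* and *ant-1.1*, an adenine nucleotide translocase gene, and had ranks of 36 and 122 in the replicates.

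In head-to-head pairs the strong summits sat between the starts. The summit lay between the 2 starts in 346 of 361 optimal regions at such pairs, or 95.8% (93.3% to 97.5%), against 542 of 754 other regions, or 71.9% (68.6% to 74.98%), a difference of 24.0 points (19.9 to 27.7). A pair with several regions counts once for each of them, and can count in both groups. The values of this paragraph were not recomputed with 1 region for each pair. Among summits between the starts, the middle 50% of the interval held 65.6% of optimal and 62.4% of other summits. That difference of 3.24 points did not exceed its counting error (-3.26 to 9.60). The starts were closer together at optimal regions, with a median distance of 499 bp (quartiles 331 and 748), against 657 bp at other regions (quartiles 396 and 947). Each gene stands here with its annotated start nearest to the summit, so the distance can differ between regions of 1 pair. At *T26A8.4* with *pdtf-1* it was 145 bp for 1 optimal region and 1545 bp for the other. The optimal share by distance between the starts was 29.6% under 200 bp, 44.5% from 200 to 399 bp, 37.5% from 400 to 599 bp, 29.1% from 600 to 999 bp and 18.4% from 1000 to 2000 bp. It was thus highest at spacings of 200 to 399 bp (38.5% to 50.6%), and its interval there does not overlap that of either bin above 600 bp. The membership rule itself limits how far a summit can lie from both starts, which gives the cloud of points in the plot its diamond outline.

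**Figure D2:**
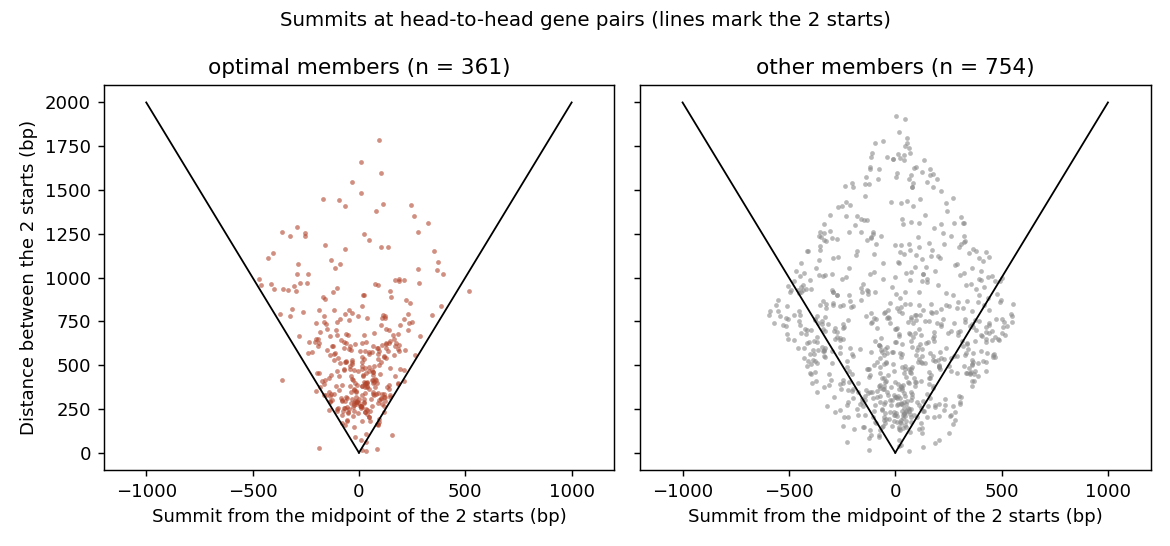
Distance between the 2 starts of a head-to-head gene pair (vertical axis, bp) against the position of the summit from their midpoint (horizontal axis, bp), for 361 optimal regions (left) and 754 other regions (right) at such pairs. Each point is 1 region and the black lines mark the starts; 346 optimal points and 542 other points lie between the lines.

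Strong summits mostly stood upstream of the nearest start. At head-to-head pairs a summit between the starts is upstream of both, so this overlaps with the result above. Whether a summit lay inside another gene was not tested. The summit was upstream of the nearest start in 396 of 419 optimal members, or 94.5%, against 635 of 937 other members, or 67.8%, a difference of 26.7 points (22.8 to 30.3). Single-gene promoters had the same order, with 92.8% of optimal and 76.2% of other regions upstream. The distance to the nearest start itself was similar, with medians of 148 bp in optimal and 140 bp in other members. The optimal share varied with position. It was 50% (44.4% to 55.6%) for the 304 members with a summit over 100 and up to 200 bp upstream of the nearest start, against 19.2% of single-gene promoters at that position. At 50 to 200 bp downstream of the start it was 2.99% of 234 members, against 1.79% of single-gene promoters, and these intervals overlap. In each of the 7 bins upstream of the start the share was higher at shared promoters, and the intervals of the classes overlapped only at 400 to 301 bp upstream. Standardised over these distance bins, shared promoters exceeded single-gene promoters by 19.5 points (16.96 to 21.9), against 21.9 points without the bins.

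**Figure D3:**
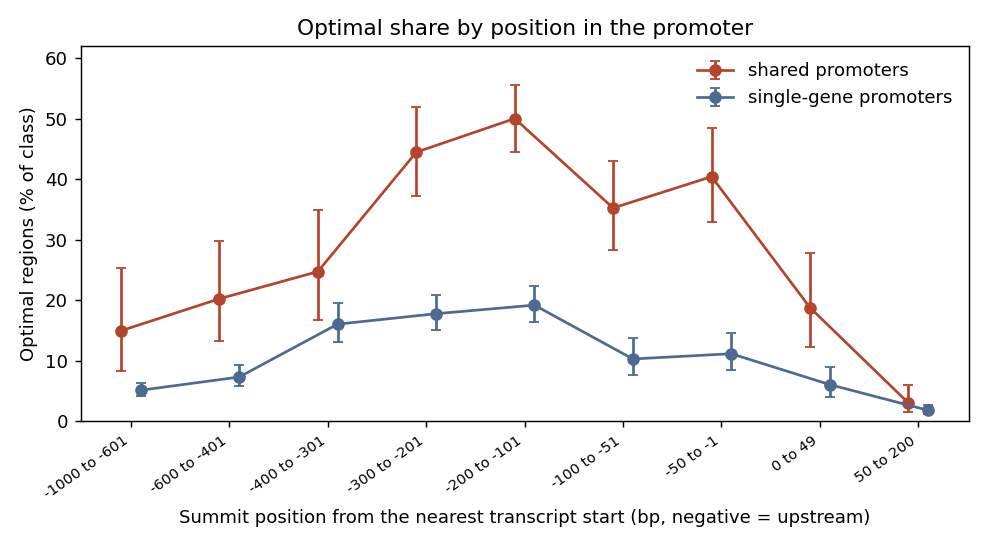
Share of optimal regions (vertical axis, percent of regions in the bin) by position of the summit from the nearest transcript start (horizontal axis, bp, negative upstream) at shared and single-gene autosomal promoters, with 95% Wilson intervals. Both curves peak over 100 and up to 200 bp upstream, at 50% for shared and 19.2% for single-gene promoters, and both are lowest downstream of the start.

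Same-strand members showed a similar placing in smaller numbers. The summit was upstream of all starts in 21 of 23 optimal regions, against 60 of 126 other regions, and between the starts in 2 optimal and 59 other regions. A start that lay inside another gene of the set occurred in 8 of 23 optimal and 51 of 126 other regions. The starts were spaced by a median of 602 bp in optimal and 586.5 bp in other regions. Whether the genes of a set form an operon was not tested.

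The 12 strongest divergent members are given with their genes. The region at *K01G5.10* and *tasp-1*, a gene named for the protease taspase, had a pooled signal of 329.6, the second highest of all 30000 regions, and ranked 1 in replicate 1 and 2 in replicate 2. The region at *Y22D7AL.10* and *hsp-60*, which encodes the mitochondrial chaperonin, had a pooled signal of 254.4 with ranks of 16 and 4. At *iff-2*, an eIF5A translation factor gene, and *F54C9.14* the signal was 237.3, with ranks of 4 and 6. At *rpl-15*, a large-subunit ribosomal protein gene, and *K11H12.8* it was 220.8, with ranks of 26 and 5. All 4 were thus among the 30 strongest regions of both replicates, and their starts lay 785 to 935 bp apart.

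The other 8 of the 12 strongest divergent members had pooled signals between 165.7 and 194.3. They were the regions of *nhl-2*, which encodes an RNA-binding protein of the TRIM-NHL family, with *tag-340*; the small-subunit ribosomal gene *rps-19* with *hsr-9*; *cct-8*, a subunit gene of the cytosolic chaperonin, with *Y55F3AR.2*; and *gpap-1* with *scpr-1*. They further included *larp-1*, which encodes a La-related RNA-binding protein, with *wip-1*; *rpl-12* with *lin-54*, which encodes the DNA-binding subunit of the DREAM repressor complex; *wapl-1*, a cohesin release factor gene, with *htz-1*, the histone H2A.Z gene; and *drr-2* with *set-16*, which encodes an MLL-type histone methyltransferase. All 12 had a match in both replicates, and 11 of them ranked 53 or better in each. The exception was the region at *gpap-1* and *scpr-1*, which ranked 7 in replicate 2, with a signal of 146.0, and 395 in replicate 1, with a signal of 29.3.

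Among same-strand members the strongest lay at *egl-30*, which encodes a Gq alpha protein, and *C53H9.4*, with a pooled signal of 232.0 and ranks of 2 and 10. The region at *F32D8.13* and *sec-61.G*, a translocon subunit gene, had a signal of 195.0 with ranks of 8 and 22, and the summit lay 244 bp upstream of *sec-61.G* and 844 bp upstream of *F32D8.13*. At *rps-28*, a small-subunit ribosomal protein gene, and *Y41D4B.4* the signal was 133.3 with ranks of 47 and 106. The next were *pqn-51* and *K11D12.14* at 103.0, *swp-1*, a splicing regulator gene, and *rpl-23* at 101.6, and *tub-2*, a tubby-related gene, and *Y71G12A.5* at 90.3. The last of these ranked 715 in replicate 1 and 151 in replicate 2, while the other 5 were within the first 200 regions of both replicates.

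At the edge of the optimal list the signal was well below that of the leading members. Just inside were *rars-1*, an arginyl-tRNA synthetase gene, with *rpb-8*, an RNA polymerase subunit gene, at 27.91, *F08D12.12* with *srpa-72* at 27.86, and *npp-10*, a nucleoporin gene, with *cyk-3* at 27.84. Just outside were *T23H2.3* with *npp-12*, another nucleoporin gene, at 27.75, *rde-2* with *pfd-6*, a prefoldin gene, at 27.61, and *klp-11*, a kinesin gene, with *F20C5.11* at 27.56. These 6 members ran from 27.56 to 27.91, so no gap in signal divides optimal from other members.

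Optimal members were found again in the replicates more often than other members. The pooled list holds the reads of both replicates, so a match is not independent evidence of a region. Optimal members are also the strongest of that list and came from the irreproducible discovery rate procedure. Part of their higher share is therefore built in. A summit of each replicate's list lay within 100 bp in 399 of 419 optimal members, or 95.2%, against 276 of 937 other members, or 29.5%. At single-gene promoters the shares were 91.5% of optimal and 22.9% of other regions. Of the optimal members, 274, or 65.4% (60.7% to 69.8%), ranked among the strongest regions of each replicate, 98 in replicate 2 alone, 39 in replicate 1 alone and 8 in neither. Optimal single-gene promoters were among the strongest of both in 61.0% (57.0% to 64.8%). Over the 399 matched optimal members the signals of the replicates had a Spearman rho of 0.55, a description across regions that share libraries, against 0.43 at optimal single-gene promoters. Limited to the optimal members that were among the strongest of both replicates, the difference between shared and single-gene promoters was 14.8 points (12.6 to 17.03).

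Ribosomal protein genes gave the highest optimal shares of all gene lists that were matched by name. A member with a cytosolic ribosomal protein gene was optimal in 43 of 62 regions, or 69.4% (57.0% to 79.4%), against 376 of 1294 members without one, or 29.1%, a difference of 40.3 points (27.7 to 50.7). The difference was 33.0 points in replicate 1 and 45.1 points in replicate 2. Small-subunit genes accounted for 20 of 24 regions and large-subunit genes for 26 of 41. At single-gene promoters, 20 of 42 regions with a ribosomal protein gene were optimal, or 47.6%, against 8.71% of the rest. With all promoters of ribosomal protein genes left out, shared promoters still exceeded single-gene promoters by 20.4 points (17.8 to 22.96). In the 37 optimal head-to-head pairs with 1 ribosomal protein gene, the summit lay a median of 304 bp upstream of that gene's start (range 32 to 757), against 180 bp upstream of the partner's start (range -153 to 677). It was nearer to the start of the ribosomal protein gene in 11 of these 37.

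Another 4 lists also stood above the 30.9% of all members. Splicing and Sm protein genes were optimal in 19 of 31 member regions, or 61.3% (43.8% to 76.3%), led by *bath-42* and *prp-8*, a core spliceosome gene, at a signal of 112.1. Oxidative phosphorylation genes were optimal in 18 of 30 regions, or 60% (42.3% to 75.4%), led by *C34E10.12*, *C34E10.10* and the ATP synthase gene *atp-2* at 127.6. Chromatin regulator genes were optimal in 17 of 31 regions, or 54.8% (37.8% to 70.8%), and secretory pathway genes in 16 of 34, or 47.1% (31.4% to 63.3%). For these 4 lists the interval lay above the share of all members. At single-gene promoters the same lists had 13.04%, 31.8%, 27.6% and 25% optimal regions.

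For 11 further lists of at least 10 members the interval held the share of all members, and 9 of them follow. Chaperone genes were optimal in 15 of 36 regions, RNA polymerase and Mediator genes in 10 of 24, led by *apb-1* and *mdt-19* at 111.1, and histone genes in 4 of 10. Proteasome genes were optimal in 10 of 26 regions, led by *his-72* and *rpt-6* at 64.02. Translation factor genes were optimal in 13 of 35, cilium genes in 4 of 12, led by *ift-43* and *mdt-26* at 92.9, and mitochondrial ribosomal protein genes in 12 of 37, led by *mrps-7* and *Y57G11C.3* at 98.8. Ubiquitin and SUMO genes were optimal in 7 of 22 regions, led by *ubq-2* and *frg-1* at 100.3, and cell cycle and DNA replication genes in 17 of 58, led by *eef-1A.1*, a translation elongation factor gene, and *rfc-4* at 148.9. The region led by *apb-1* and *mdt-19* ranked 69 in replicate 2 but 1342 in replicate 1.

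Of the lists with at least 10 members, chemoreceptor genes had the lowest share. Chemoreceptor genes, large families of sensory receptors whose close copies can share reads, were optimal in 5 of 38 regions, or 13.2% (5.75% to 27.3%), against 0.966% of 207 single-gene regions. The interval lay below the share of all members. For collagen and cuticle genes and for tRNA synthetase genes the interval held the share of all members. Collagen and cuticle genes were optimal in 2 of 12 regions, led by *col-38* with the ribosomal protein gene *rpl-5* as its partner at 121.7, and tRNA synthetase genes in 3 of 13, led by *ears-2* and *uncp-18* at 143.7. Nuclear hormone receptor genes were optimal in 2 of 9 regions, led by *dnj-19* and *nhr-47* at 131.3. Homeobox genes had 2 member regions, of which that of *malt-1* and *ceh-38* was optimal at 83.2. The bHLH, neuropeptide and synaptic lists had 2, 2 and 1 member regions and no optimal one, numbers too small to describe these classes. A region counts for each gene in its window, so a list's region can be strong beside a partner from another list.

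**Figure D4:**
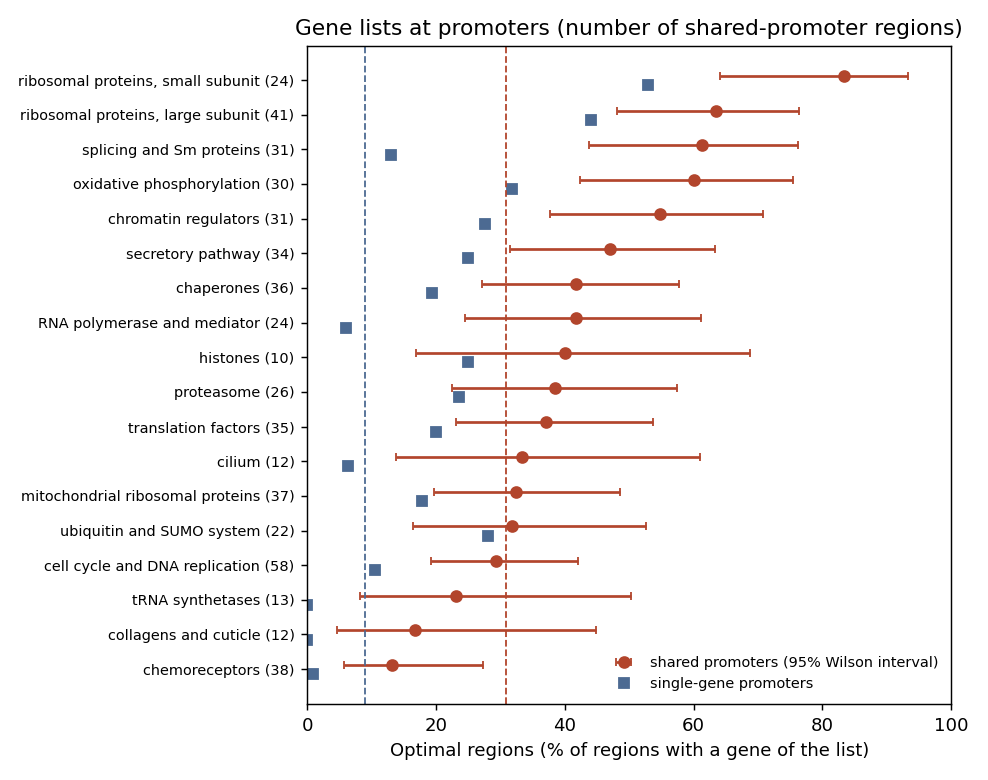
Share of optimal regions (horizontal axis, percent) among shared-promoter regions with a gene of each list (circles, 95% Wilson intervals, number of regions in brackets) and among single-gene promoters with a gene of the list (squares), for lists with at least 10 shared-promoter regions. Dashed lines mark the share over all shared promoters, 30.9%, and over all single-gene promoters, 8.96%; ribosomal protein genes of the small subunit are highest at 83.3% and chemoreceptors lowest at 13.2%.

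Pairs in which both genes belonged to 1 list were rare, with 29 of 1356 member regions, and 7 of these were optimal, near the 30.9% of all members. Large- and small-subunit ribosomal protein genes counted as separate lists here. The optimal regions of *rps-10* with *rpl-24.1*, *rpl-39* with *rps-30* and *rps-14* with *rpl-36* are therefore not among the 29. Members with 2 or more listed genes, of the same or of different lists, were optimal in 37 of 77 regions, or 48.05% (37.25% to 59.0%). The share was 39.6% (35.3% to 44.0%) of the 480 members with 1 or more listed genes, which include these 77. It was 26.1% (23.3% to 29.15%) of the 876 with none. The intervals for 1 or more and for 2 or more listed genes overlap. The splicing factor genes *rsp-2* and *rsp-1*, which start 1019 bp apart, had 2 optimal regions, at signals of 75.1 and 41.8, the first 271 bp upstream of *rsp-2* and the second 116 bp upstream of *rsp-1*. The Sm protein gene *snr-3* and the splicing factor gene *rsp-5* had a region at 45.8. The secretory genes *sec-61.B* and *trap-3*, of the translocon and its associated proteins, had one at 121.6, with ranks of 69 in replicate 1 and 120 in replicate 2. The replication gene *orc-5* and the cyclin B gene *cyb-1* had one at 51.6. The histone gene sets *his-67*, *his-68* and *alg-5* and *his-35*, *his-41* and *C50F4.6* had regions at 42.9 and 38.3, and the second of these had no match in replicate 1. Histone genes include near-identical copies, so reads there cannot be assigned with certainty. None of the 9 member regions at pairs of chemoreceptor genes was optimal, against 30.9% of all members, a number too small to describe the class. Only 2 other gene sets held 2 optimal regions, *T26A8.4* with *pdtf-1* at signals of 33.0 and 150.0 and *zip-4* with *nol-58* at 30.1 and 64.4, named because so few sets had them.

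Optimal members had a GC-rich centre and AT-rich flanks. Within 50 bp of the summit the median GC content was 49.5% in optimal members (quartiles 45.5% and 52.97%), against 42.6% in other members (quartiles 36.6% and 47.5%). The difference of medians was 7.84 points within 25 bp of the summit, 6.93 points within 50 bp, 0.995 points within 100 bp and -1.33 points within 150 bp. In the central 41 bp the mean was 54.5% ± 8.27 in optimal members and 44.1% ± 11.9 in other members (SD over 419 and 937 regions). In the flanks from 100 to 150 bp on each side the mean was 30.3% ± 8.72 in optimal members and 36.1% ± 8.83 in other members. Optimal single-gene promoters had a similar centre, 54.3% ± 8.89, but flanks of 36.4% ± 10.7 (SD over 597 regions). Each replicate's own strongest regions gave the same order, with flanks of 31.7% at shared and 38.1% at single-gene promoters in replicate 1, and 30.05% at shared and 35.9% at single-gene promoters in replicate 2. A run of 6 T or 6 A occurred in these flanks in 56.8% of optimal members (52.0% to 61.5%), against 41.7% of other members (38.6% to 44.9%) and 45.7% of optimal single-gene promoters (41.8% to 49.7%). The flanks were chosen for description after the values in the wider windows were seen, and the part of the flanking genes' sequence in them was not tested. Standardised over GC content within 50 bp, shared promoters still exceeded single-gene promoters in optimal share by 21.1 points (18.7 to 23.4).

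**Figure D5:**
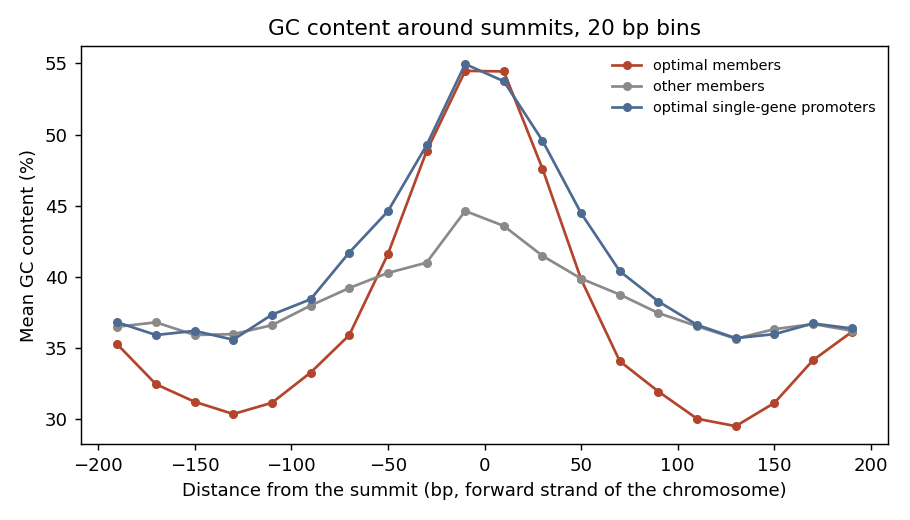
Mean GC content (vertical axis, percent, 20 bp bins) by distance from the summit (horizontal axis, bp, forward strand of the chromosome) for optimal members, other members and optimal single-gene promoters. Optimal members peak at 54.5% beside the summit and drop to 29.5% at 130 bp on the right, while optimal single-gene promoters have a similar peak of 54.9% and 35.7% there.

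Words of 6 bases were counted within 50 bp of the summit on both strands, once per region. GCGCGC, its own reverse complement, occurred in 72 of 419 optimal members, or 17.2%, against 40 of 937 other members, or 4.27%, and in 2.33% of all autosomal regions of that length. The difference of 12.9 points (9.28 to 16.98) was 11.7 points (7.57 to 15.7) when standardised over GC content. GAGAGA, or TCTCTC on the other strand, occurred in 18.1% of optimal and 10.8% of other members, and in 9.36% of all autosomal regions, a difference of 7.36 points that shrank to 2.76 (-2.02 to 7.55) with GC content held fixed. TTTCAG, or CTGAAA on the other strand, which resembles the splice acceptor of worm introns and trans-splice sites, occurred in 7.40% of optimal and 18.4% of other members, and in 16.3% of all autosomal regions. Its difference was -10.96 points, and -6.22 points (-9.88 to -2.56) with GC content held fixed. TTTTTT, or AAAAAA, occurred in 22.0% of optimal and 31.3% of other members, and in 26.9% of all autosomal regions. Its difference was -9.31 points within 50 bp of the summit and 12.02 points (6.42 to 17.4) within 100 bp. With GC content within 50 bp held fixed it was 4.97 points (0.30 to 9.65), so the sign turned under both. The differences within 50 bp had the same direction at single-gene promoters, so they are not particular to shared promoters. Optimal and other regions there had GCGCGC in 14.2% and 2.06%, and GAGAGA in 24.5% and 9.69%. TTTCAG occurred in 5.53% and 16.96% of them, and TTTTTT in 16.25% and 29.55%.

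Words with a homeodomain core were uncommon at both kinds of member. TAATTA, its own reverse complement, occurred in 6 of 419 optimal members, or 1.43%, against 30 of 937 other members, or 3.20%, and in 2.45% of all autosomal regions. TAATTG, or CAATTA on the other strand, occurred in 3.10% of optimal and 5.02% of other members, and in 5.08% of all autosomal regions. Both differences were within counting error in the pooled list, -1.77 points (-3.31 to 0.14) for TAATTA and -1.91 points (-3.96 to 0.55) for TAATTG, and both were positive when standardised over GC content, at 0.49 and 0.56 points. Without replicate 2 the TAATTG difference was -3.43 points, with an interval below 0 (-5.58 to -0.80), and without replicate 1 it was -1.16 points (-3.50 to 1.63). TATAAA, or TTTATA, occurred in 2.15% of optimal and 6.19% of other members and in 5.35% of all autosomal regions, CCCGCC, or GGCGGG, in 8.35% of optimal and 3.74% of other members and in 3.42% of all autosomal regions, and the E-box CACGTG in 2.15% of optimal and 2.03% of other members and in 3.31% of all autosomal regions. With GC content held fixed, the differences of TATAAA and CCCGCC were within counting error. The difference of TATAAA was -4.04 points (-6.05 to -1.71), and -1.84 points (-4.12 to 0.97) without replicate 2. At single-gene promoters, optimal and other regions had TAATTA in 1.51% and 3.02%, and TAATTG in 2.85% and 5.31%. There TATAAA occurred in 2.51% and 6.41%, CCCGCC in 8.54% and 3.69%, and CACGTG in 4.02% and 3.56%. A match is not a binding site, and the absence of these letters from a window says nothing about the factor.

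All 2080 words of 6 bases were also ranked by their difference on chromosomes I, II and III, and the leading ones were then counted on chromosomes IV and V, which the ranking did not use. Among the 5 leading words, GCGAGA can overlap CGAGAC by all but 1 base, and CGAGAC can overlap GAGACC in the same way. The other 2 were GCGCAC and GCGCGC, which share their first 4 bases. On chromosomes IV and V, GCGCAC, or GTGCGC on the other strand, occurred in 31 of 136 optimal members, or 22.8%, against 28 of 385 other members, or 7.27%, and in 3.40% of all autosomal regions. CGAGAC, or GTCTCG, occurred in 16.9% of optimal and 6.49% of other members there and in 4.84% of all autosomal regions. GCGAGA, or TCTCGC, occurred in 18.4% of optimal and 7.27% of other members there and in 5.63% of all autosomal regions. GAGACC, or GGTCTC, occurred in 13.97% of optimal and 5.97% of other members there and in 4.33% of all autosomal regions, the smallest of the 5 differences at 7.997 points (2.39 to 15.1). All 5 intervals lay above 0. With GC content held fixed, GCGCAC at 11.6 points (3.31 to 19.9) and GCGCGC at 8.62 points (1.25 to 15.98) had intervals above 0, while the intervals of the other 3 words reached below it. Single-gene promoters, over all autosomes, also had these words more often in optimal than in other regions. The shares there were 14.2% and 3.00% for GCGCAC, 14.2% and 2.06% for GCGCGC, and 15.6% and 4.35% for CGAGAC. They were 17.6% and 5.70% for GCGAGA, and 13.4% and 3.86% for GAGACC.

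The 3 words that ranked lowest were made of A and T with at most 1 G. On chromosomes IV and V, GAAAAA, or TTTTTC, occurred in 22.8% of optimal and 30.9% of other members and in 28.3% of all autosomal regions, a difference of -8.12 points whose interval reached above 0 (-15.98 to 0.79). The intervals of the next 2 words lay below 0. AAAATT, or AATTTT, occurred there in 15.4% of optimal and 31.95% of other members and in 28.5% of all autosomal regions. AAAAAT, or ATTTTT, occurred there in 27.9% of optimal and 38.7% of other members and in 31.5% of all autosomal regions. With GC content held fixed, the differences were 5.02 points (-3.34 to 13.4) for GAAAAA, 0.48 points (-6.68 to 7.63) for AAAATT and 10.4 points (2.12 to 18.7) for AAAAAT. The sign thus turned for each of these words, and the interval of AAAAAT lay above 0. At single-gene promoters, over all autosomes, GAAAAA occurred in 22.6% of optimal and 30.9% of other regions. AAAATT occurred there in 12.4% and 29.25%, and AAAAAT in 20.8% and 34.1%.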

How the data were processed

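The authors deposited lists of regions for each replicate and for pooled reads, called against a control, and an optimal list from the irreproducible discovery rate procedure, per the deposited notes. Each region has the authors' signal, in an unstated unit, and a summit offset. The sources used here do not give the aligner, peak caller, versions, read depth or threshold. The 4 ce11 lists were used; the 4 ce10 lists were not, since their coordinates do not match the annotation (Ensembl 115, 19985 protein-coding genes, 29326 transcript starts) or the WBcel235 genome.

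Members were placed by summit, counted from 1, and each gene by its annotated start nearest to the summit. Optimal members had an optimal summit within 100 bp. Shares carry Wilson intervals and differences of shares Newcombe intervals at 95%. Standardised differences weight bins by the first class (GC bins of 5%). The 23 gene lists were matched by gene name, and name prefixes of 4 lists were corrected after values were seen. Named were the 12 divergent and 6 same-strand members of highest signal, each list's strongest optimal member, every optimal member with 2 genes of a list, 3 members inside and 3 outside the optimal edge, the 3 with most genes, and 5 higher and 3 lower words. The members and lists were chosen with earlier results of these data known. Placing, intervals and word counts were checked on simulated data. Python 3.11.15, numpy 2.4.6 and pandas 2.3.3 were used. One named region is not reported here.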

Additional observations from a re-analysis of the deposited data

How the results depend on the processing

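The excess of optimal regions at shared over single-gene promoters kept its direction and an interval above 0 under all 14 alternatives tried, between 13.9 and 34.1 points, with 18.9 to 21.9 points without 1 replicate. The difference between divergent and same-strand members kept its direction under all 15, between 10.6 and 28.4 points and 14.4 to 15.3 without 1 replicate, but its interval included 0 in the narrowest window (21.5 points). For both differences, matching by an optimal summit within 25 bp or an optimal region covering 50% returned the main value. Optimal regions are identical in position to pooled regions, so these alternatives add no check. The difference for summits between the starts was 21.02 to 22.9 points without 1 replicate. The gap between starts differed by -158 bp, by -164.5 to -159 bp without 1 replicate, by -120.5 bp for the stronger 50% of optimal regions, by -136 bp from the most upstream starts and by -133.5 bp for regions strongest in both replicates. The distance to the nearest start differed by 8 bp, and by 6, 3.5 and 11 bp under these 3 alternatives and 0 to 0.5 bp without 1 replicate. The GC difference of 6.93 points became 7.84 within 25 bp of the summit and 0.995 within 100 bp, and stayed at 6.93 without either replicate.

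Of 9 fixed words, 6 had an interval on 1 side of 0, 5 within 25 bp of the summit, where GAGAGA differed by 1.84 points (-1.04 to 5.20), and 3 when standardised over GC content. The number was also 6 without replicate 1 and without replicate 2, but without replicate 2 TATAAA (-1.84) had left it and TAATTG (-3.43) had entered it. Signs turned for TAATTA (0.57 within 100 bp, 0.49 over GC), TAATTG (0.56 over GC), TTTTTT (12.02 within 100 bp, 4.97 over GC) and CACGTG (-0.19 within 25 bp, -1.27 within 100 bp, -0.91 over GC, -0.63 to 0.22 without 1 replicate). Members with 3 or more genes exceeded those with 2 by 9.22 points (-0.79 to 20.1), by 5.20 without replicate 1 and by 12.5 (2.53 to 23.2) without replicate 2. The excess at ribosomal protein genes was 33.0 to 45.1 points without 1 replicate. The causes were not tested. Settings added after seeing the data were the regions strongest in both replicates, summits upstream of every start, promoters without ribosomal protein genes, and the left-out replicates for gene number and gene lists.

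Limits are the unknown read depth, the single group, and the equality of the optimal list with the strongest regions, so that shares show where strong signal lies. No paired analysis was possible because there is 1 group. Some annotated starts are trans-splice sites, and intervals treat neighbouring regions as independent.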

Other observations

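The stretches printed for *K01G5.10* with *tasp-1* and for *rpl-15* with *K11H12.8*, on chromosomes III and IV, share a run of 12 bases, AACACGCTCCAC, the longest that any pair of the 6 printed stretches has in common on either strand. The run was looked for because these sequences looked alike, so what follows is a description. Within 50 bp of the summit it occurred in 2 optimal members, 1 other member and 1 optimal single-gene promoter, and in 0.0203% of all autosomal regions. Its last 8 bases, CGCTCCAC, occurred in 25 of 419 optimal members, or 5.97%, against 15 of 937 other members, or 1.60%, in 2.51% of optimal single-gene promoters and in 0.545% of all autosomal regions. On chromosomes II and V, which hold neither stretch, the difference was 2.41 points, within counting error (-0.16 to 6.85). CGCTCCAC had the largest difference of all words of 8 bases in the run. Over all autosomes the others differed by 0.21 points (AACACGCT), 0.42 points (ACACGCTC), 1.46 points (ACGCTCCA) and 1.22 points (CACGCTCC). AACACGCT occurred in 0.95% of optimal members and in 2.01% of optimal single-gene promoters.

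Members whose genes carry a gene-class name, in place of a sequence name alone, were more often optimal. The share was 36.4% (32.8% to 40.3%) of 626 members with 2 or more such genes, 30.6% (26.9% to 34.6%) of 545 with 1 and 12.97% (8.88% to 18.6%) of 185 with none. The intervals for 1 and for 2 or more such genes overlap, and that for none lies below both. At the heat-shock genes *hsp-16.2* and *hsp-16.41*, a head-to-head pair chosen for mention after its values were seen, the 2 member regions had signals of 12.8 and 21.8 and were not optimal.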
